A study of Danio rerio with 6 samples.

Results

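The mitochondrial carriers of the slc25 family were examined in adult zebrafish liver: 47 genes of the 23354 in the deposited table, taken as every row whose gene name starts with slc25a except slc25a20 and slc25a38a, which were left out of the set. Liver RNA was sequenced in 3 libraries labelled capn3b-/- mutant and 3 labelled wild type AB, a laboratory strain, and the design asks which genes differ between these genotypes. All fish were adults. No other allele, agent or treatment is given in the labels, and neither are sex, the nature of the capn3b lesion, nor whether each library came from its own animal, so that p-values describe the spread between libraries, which may be technical. Values are FPKM, reads scaled for gene length and library depth. Being scaled for gene length, they let levels be compared between genes. A fold change is given on the log2(FPKM + 1) scale with its standard error (SE).

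Mitochondrial carriers sit in the inner membrane of the mitochondrion, which few metabolites cross unaided. Each carrier binds its substrate from one side, changes shape and releases it on the other, often in exchange for a second compound, so that the family links the cytosol with the citric acid cycle, ATP synthesis, amino acid breakdown and the use of vitamins inside the organelle. In liver these steps feed gluconeogenesis, nitrogen disposal and lipid synthesis. Roles named below are known mostly from mammals and yeast and are given as background. All 47 members carried the Pfam name of the mitochondrial carrier domain in the deposited annotation. The identifiers of all 47 were found in the gene name table, 31 of them under the same symbol with letter case ignored. The other 16 included slc25a22, whose identifier that table calls slc25a55a, so its glutamate carrier role is uncertain. Roles below follow the deposited symbols, also for the rest of these 16, and were not checked further.

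The depth by which the values were scaled, recovered from the steps in the FPKM, was 16858409 to 19492592 reads a library. Reads recovered for the genes summed to 77.1% to 77.9% of it. The mutated gene, capn3b, cannot check the labels: its total over all 6 libraries was 1 read, in mutant replicate 3. Hepatocyte markers were abundant in both genotypes. Over 22 of 24 listed genes their summed level was 179750 to 185322 FPKM in mutant liver and 169506 to 183357 in AB liver. Of these 22, 4 rose and 3 fell, beside 5.91% higher and 5.45% lower among all tested genes. At an unadjusted p under 0.05 (limma) 8 of them were higher and 6 lower. Markers of some other cell types also moved with genotype. Of 12 tested markers of cholangiocytes, endothelial and stellate cells none passed (limma, 2 higher and 0 lower unadjusted at 0.05, 0 by voom). Of 2 tested intestine and adipose markers 1 fell, and none of 8 gonad markers was tested. Of 12 tested erythrocyte markers 9 fell, and the summed level of the 13 measured was 194 to 218 FPKM in mutant liver and 363 to 425 in AB liver. No exocrine pancreas marker of 15 passed (limma; 0 also unadjusted at 0.05 and by voom), but their sum varied widely, from 259 to 915 FPKM in mutant liver and 259 to 1830 in AB liver. Of 13 macrophage markers 7 rose (summed level of 14 markers 469 to 690 FPKM against 289 to 466), and of 8 neutrophil markers 7 rose (11 markers, 56.6 to 479 against 11.0 to 18.7). The only tested marker of skeletal muscle, the actin gene acta1a, rose (76, 171 and 101 reads against 3, 0 and 0; adjusted p = 0.00437), and 16 muscle markers summed to 2.498 to 5.61 FPKM against 0.0776 to 0.511. The deposited data hold only genes with a value above 0 in at least 1 library, so a marker without reads would be missing from them. Of 20 listed erythrocyte markers 13 were present, and of 17 skeletal muscle markers 16. RNA of the mitochondrial genome took 4.47% to 5.48% of all FPKM in mutant liver and 6.25% to 8.61% in AB liver. The part of these shifts in the results on carriers was not tested, and in bulk liver fewer cells of a type and less RNA per cell cannot be told apart.

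The carriers that passed the test were all lower in mutant liver. A gene was tested if it had at least 1 FPKM in at least 3 of the 6 libraries, which 33 members passed and 14 did not. Of the 33, 5 fell and 0 rose at an adjusted p under 0.05 (limma on log2(FPKM + 1), Benjamini-Hochberg over 11164 genes): slc25a48, slc25a32a, slc25a21, slc25a42 and slc25a11. Among all tested genes 11.4% changed, 5.45% being lower and 5.91% higher in mutant liver, while 15.2% of tested members were lower. At an unadjusted p under 0.05 stood 27.3% of the members, with 9 lower and 0 higher. Of all tested genes 28.2% stood there in either direction, 15.5% being higher (1733 of these 3146 genes) and the rest lower. The test by limma voom on the recovered reads gave 6 lower and 0 higher. The count was 0 without wild type replicate 2, 1 without mutant replicate 1, and 2 without mutant replicate 2 or without wild type replicate 1. Without wild type replicate 1 the carriers called were slc25a48 and slc25a43, the latter not among the 5 above. Median scaling of the libraries gave 8. Lower calls among all tested genes also moved, from 608 in the main fit to 804 with median scaling, 627 by voom and 228 without wild type replicate 2.

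The family as a whole leaned the same way. The log2 fold change was below 0 for 27 of 33 members, 81.8%, against 44.2% of all tested genes, and its median was -0.23 for the members and 0.05 for all tested genes. In 12 of the 33 tested members every mutant library lay below every wild type library, 36.4% against a background of 14.7%. In 0 of the 33 did every mutant library lie above, against a background of 19.1%. Of the 33, 14 had a log2 fold change within 0.2 of 0. The typical spread was alike in the genotypes, with a median SD of log2 values of 0.22 between the mutant libraries and 0.22 between the wild type libraries.

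**Figure D1:**
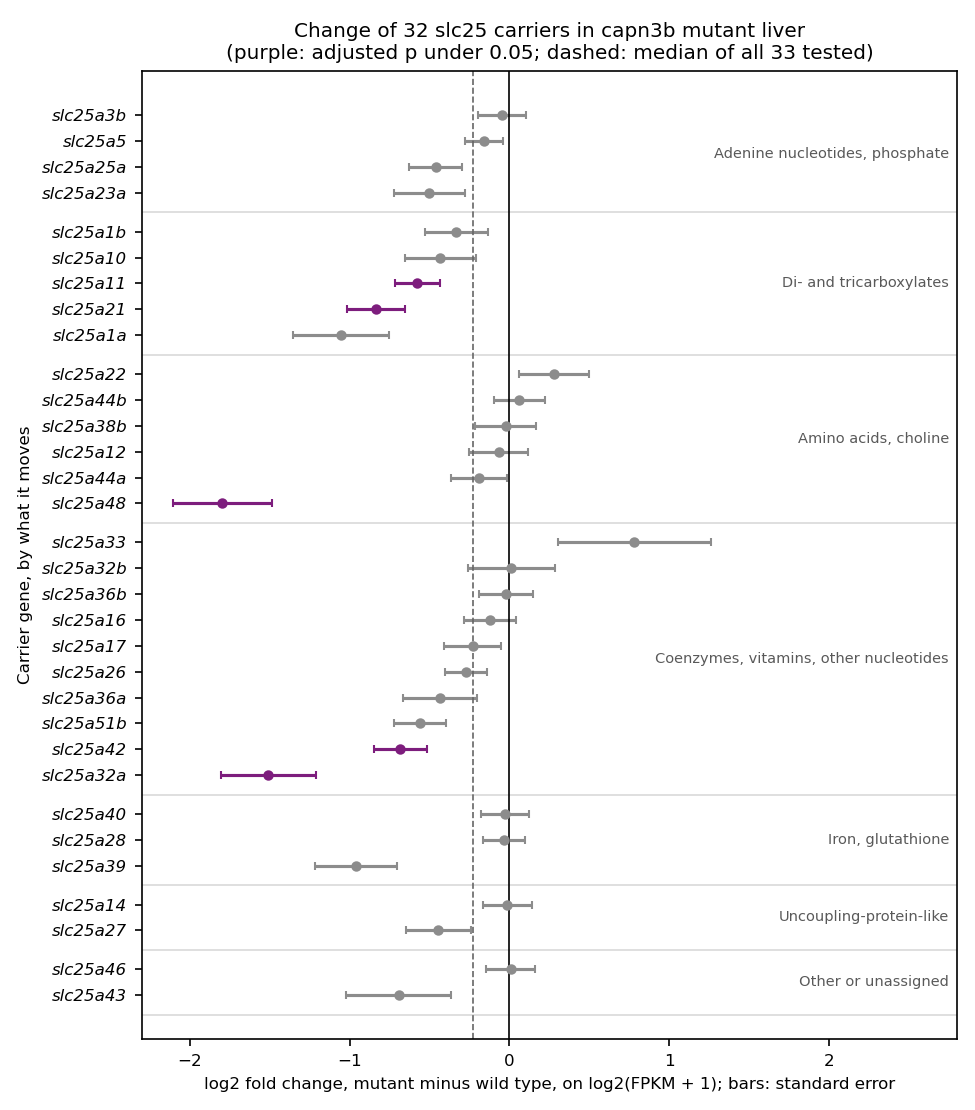
Log2 fold change (mutant minus wild type, on log2(FPKM + 1), x axis) of 32 of the 33 tested carriers, grouped by what they move (y axis); points are limma estimates, bars their standard errors (SE), purple points passed an adjusted p of 0.05, and the dashed line marks the median of all 33, -0.23. The 5 purple points all lie left of 0, and slc25a33 lies farthest right at 0.78 with the widest bar.

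Levels within the family spanned several orders of magnitude, and a few members made up nearly all of it. On the FPKM scale the 47 members summed to 3724, 3823 and 3274 in mutant liver and 4093, 4203 and 4269 in AB liver. The adenine nucleotide translocase gene slc25a5 took 79.5% to 82.3% of that sum in mutant liver and 76.9% to 80.3% in AB liver, and the phosphate carrier gene slc25a3b a further 6.38% to 8.46% over all 6 libraries. Without both, the remaining 45 genes summed to 360, 376 and 393 FPKM in mutant liver and 544, 607 and 694 in AB liver, and these groups did not overlap. Much of that gap was slc25a48, which made up 13.0% to 24.6% of the remainder in mutant liver and 27.8% to 40.6% in AB liver. With slc25a48 also removed, the sum was 283 to 340 FPKM in mutant liver and 375 to 412 in AB liver, still without overlap. A mean over all libraries above 20 FPKM was reached by 8 members, 25 had 1 to 20 FPKM and 14 had less than 1.

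**Figure D2:**
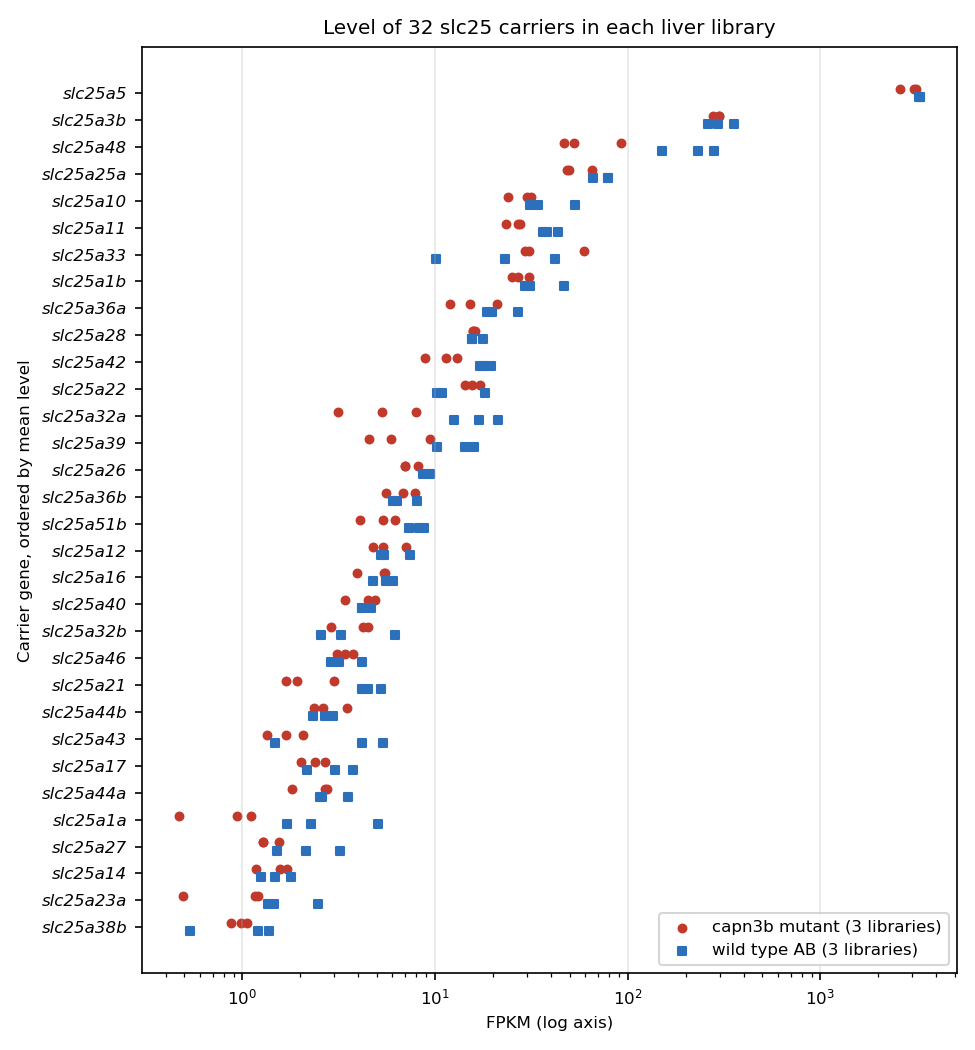
FPKM (log axis, x) of 32 of the 33 tested carriers in each library, ordered by mean level (y axis); red circles are the 3 mutant libraries and blue squares the 3 wild type libraries. The gene slc25a5 stands alone at the top (2604 to 3288), slc25a3b follows (261 to 355), and the red points of slc25a48 (46.8 to 92.4) lie clear of the blue ones (151 to 282).

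Carriers of adenine nucleotides and phosphate supply ATP synthesis, and none of the 4 tested passed the threshold. The translocase gene slc25a5, whose protein swaps ADP for ATP, had 3066, 3148 and 2604 FPKM in mutant liver and 3288, 3241 and 3282 in AB liver. All mutant values lay below the wild type ones, with mutant replicate 3 lowest, but the difference was small (log2 fold change -0.16, SE 0.12, adjusted p = 0.421). The phosphate carrier gene slc25a3b had 298, 300 and 277 FPKM in mutant liver and 261, 355 and 293 in AB liver, and the groups overlapped (-0.04, SE 0.15, adjusted p = 0.878). The gene slc25a25a, for a calcium-regulated carrier of ATP-Mg and phosphate, stood at 48.2, 49.8 and 65.0 FPKM in mutant liver and 79.2, 79.0 and 66.0 in AB liver. The groups did not overlap, though mutant replicate 3 came close to wild type replicate 3 (log2 fold change -0.46, SE 0.17, adjusted p = 0.115).

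The other 8 genes of this group were low. Of them slc25a23a, another ATP-Mg/phosphate carrier gene, was tested, at a mean of 0.952 FPKM in mutant liver and 1.76 in AB liver (adjusted p = 0.185). The translocase genes slc25a4 and slc25a6, the former being the muscle form in mammals, had 1 and 8 reads over all 6 libraries, and slc25a24l had 2. A count of 0 allows up to 3 reads, which for slc25a4 stands for 0.0730 to 0.0844 FPKM a library (counting error only). A difference in slc25a4 below that level was not detectable at this depth. The second phosphate carrier gene slc25a3a had 0 mutant reads and 5, 4 and 1 wild type reads. With 0 mutant reads no ratio can be estimated for slc25a3a. If 3 reads are allowed over the mutant group and the 10 wild type reads are taken as exact, the fold is 3.37 at matched depth. This value is neither an estimate nor a lower bound, since it leaves out counting error in the wild type reads and the spread between libraries. The adjusted p of slc25a3a was 0.151 when all genes were tested by limma.

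Carriers of di- and tricarboxylates move citric acid cycle intermediates, and all 5 lay below 0, 2 of them past the threshold. Of all tested genes 44.2% lay below 0 and 5.45% were lower past the threshold. The 2-oxoglutarate/malate carrier gene slc25a11, part of the malate-aspartate shuttle, had 23.5, 26.9 and 27.6 FPKM in mutant liver and 36.2, 38.2 and 43.4 in AB liver (ENSDARG00000035741, chromosome 5, 67397951 to 67414207). Both groups were tight and did not overlap. Its level fell by 0.58 on the log2 scale (SE 0.14; limma adjusted p = 0.0394), or from 39.3 ± 3.74 to 26.0 ± 2.21 FPKM (SD, n = 3 each). The call was lost in 8 of 14 alternatives, including each omission of a single library (adjusted p = 0.0616 to 0.139), and the adjusted p ranged from 0.0194 to 0.139 over all of them.

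The oxodicarboxylate carrier gene slc25a21, whose protein takes up 2-oxoadipate from lysine and tryptophan breakdown, had 1.69, 1.91 and 2.99 FPKM in mutant liver and 4.46, 5.25 and 4.19 in AB liver (ENSDARG00000060564, chromosome 17, 38082742 to 38285436). These levels rest on 59, 67 and 108 reads in mutant liver and 170, 177 and 138 in AB liver. The mutant group lay wholly below, with replicate 3 nearest the wild type. The log2 fold change was -0.83 (SE 0.18; limma adjusted p = 0.0263). The call was lost in 6 of 13 alternatives, such as leaving out mutant replicate 1 or 2 (adjusted p = 0.0857 and 0.0864) or wild type replicate 1 or 2 (0.0616 and 0.0927). The adjusted p ranged from 0.0144 to 0.0927.

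The remaining genes of this group did not pass. The dicarboxylate carrier gene slc25a10, for malate and succinate, had 29.9, 24.0 and 31.6 FPKM in mutant liver and 34.4, 31.1 and 53.4 in AB liver. Mutant replicate 3 lay above wild type replicate 2, so the groups overlapped (adjusted p = 0.25). The citrate carrier gene slc25a1b, which provides citrate for lipid synthesis, had 26.8, 25.2 and 30.7 FPKM in mutant liver and 29.2, 31.3 and 46.5 in AB liver. These groups overlapped as well, and wild type replicate 3 stood above the rest (adjusted p = 0.318). The second citrate carrier gene slc25a1a was singled out after its values were seen. It stood at 1.11, 0.468 and 0.936 FPKM in mutant liver and 2.28, 1.70 and 5.03 in AB liver, with no overlap and a log2 fold change of -1.05, SE 0.30, adjusted p = 0.0606. It passed under median scaling, quantile normalization and the replicate block, the lowest adjusted p being 0.0375 and the highest 0.177.

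Among carriers of amino acids and choline 1 of 6 tested genes fell, beside 5.45% of all tested genes, and 5 did not pass. It was slc25a48, which had the most negative log2(FPKM + 1) fold change of the 33 tested members and whose product has been linked to choline uptake by mitochondria in mammals, where choline is oxidised to betaine. It had 46.8, 92.4 and 52.6 FPKM in mutant liver and 151, 232 and 282 in AB liver (ENSDARG00000021250, chromosome 14, 25293358 to 25301757). The highest mutant library, replicate 2, stayed well below the lowest wild type library, replicate 1. The mean went from 221 ± 66.0 FPKM in AB liver to 63.9 ± 24.8 in mutant liver (SD, n = 3 each), a ratio of 3.46. The log2 fold change was -1.80 (SE 0.31; limma adjusted p = 0.0131). The call was lost in 1 of 14 alternatives, that without wild type replicate 2 (adjusted p = 0.0584), and the lowest adjusted p was 0.01. With 1 library left out the wild type to mutant ratio stayed between 2.99 and 4.46. In wild type liver slc25a48 was the third most abundant of the 47 carriers, behind slc25a5 and slc25a3b.

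None of the other 5 tested genes of this group passed. The glutamate carrier gene by name, slc25a22, was the most abundant at 15.7 ± 1.496 FPKM in mutant liver and 13.1 ± 4.37 in AB liver, and wild type replicate 3 lay above all mutant libraries (log2 fold change 0.28, SE 0.22, adjusted p = 0.446). The gene slc25a12, for an aspartate/glutamate carrier of the malate-aspartate shuttle, had 5.73 ± 1.19 and 6.04 ± 1.23 FPKM (SD, n = 3 each; adjusted p = 0.852). No slc25a13 row was among the members, so slc25a12 does not stand for this arm of the shuttle as a whole. The branched-chain amino acid carrier genes slc25a44a and slc25a44b had 1.80 to 3.54 FPKM in single libraries, and neither passed (adjusted p = 0.517 and 0.836). The glycine carrier gene slc25a38b lay near 1 FPKM in both genotypes (0.972 and 1.04; adjusted p = 0.951). The ornithine carrier genes slc25a15a and slc25a15b, with slc25a18 and slc25a29, were below the filter, slc25a29 having the lowest mean of the group at 0.125 FPKM.

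All 11 carriers of coenzymes, vitamins and other nucleotides were tested, of which 2 fell, beside 5.45% of all tested genes, and 9 did not pass. The gene slc25a32a, one of a pair for the carrier of folate and of the flavin FAD, had 5.29, 3.13 and 7.92 FPKM in mutant liver and 16.8, 21.2 and 12.5 in AB liver (ENSDARG00000089791, chromosome 19, 13017538 to 13048458). The highest mutant library, replicate 3, lay below the lowest wild type library, also replicate 3. The mean went from 16.8 ± 4.32 to 5.45 ± 2.40 FPKM (SD, n = 3 each), or -1.51 on the log2 scale (SE 0.30; limma adjusted p = 0.0205). The call was lost in 5 of 14 alternatives, such as leaving out mutant replicate 1 (adjusted p = 0.0591), wild type replicate 1 (0.0519) or wild type replicate 2 (0.0774). The adjusted p ranged from 0.013 to 0.0774.

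Its paralogue slc25a32b did not pass. It had 4.25, 2.88 and 4.48 FPKM in mutant liver and 3.25, 2.55 and 6.22 in AB liver, with the mutant libraries inside the wild type range (log2 fold change 0.01, SE 0.27, adjusted p = 0.984). Within a library, slc25a32a exceeded slc25a32b on the log2(FPKM + 1) scale by 0.26, 0.09 and 0.70 in mutant liver and by 2.07, 2.64 and 0.90 in AB liver. The groups did not overlap. The difference between genotypes in this gap was -1.52, with a two-sided exact permutation p of 0.1, the smallest that 3 against 3 libraries allow (0.2 after Benjamini-Hochberg adjustment over 4 pairs). Of the 4 pairs with both letters tested and compared in this way, the gap between slc25a1b and slc25a1a also reached p = 0.1 in the exact permutation test, being wider in mutant liver by 0.72, and the gaps of slc25a36a to slc25a36b and slc25a44a to slc25a44b gave p = 0.2, all 4 being 0.2 after adjustment.

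The gene slc25a42, whose protein carries coenzyme A into the matrix, had 8.85, 11.4 and 13.0 FPKM in mutant liver and 19.5, 17.9 and 17.2 in AB liver (ENSDARG00000099368, chromosome 2, 56858432 to 56897349). The wild type libraries lay close together and above all mutant libraries. The mean went from 18.2 ± 1.196 to 11.1 ± 2.11 FPKM (SD, n = 3 each), or -0.68 on the log2 scale (SE 0.17; limma adjusted p = 0.0372). The call was lost in 7 of 14 alternatives, such as leaving out mutant replicate 1 or 2 (adjusted p = 0.117 and 0.0913) or wild type replicate 1, 2 or 3 (0.0996, 0.105 and 0.0603). The adjusted p ranged from 0.0233 to 0.117. Another coenzyme A-linked carrier, slc25a16, had overlapping groups at means of 4.97 and 5.46 FPKM (adjusted p = 0.672).

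**Figure D3:**
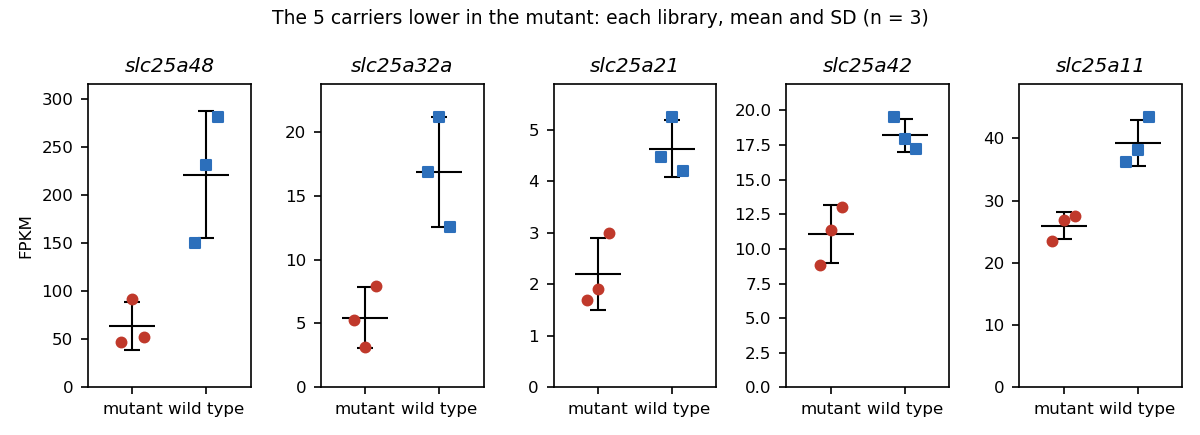
FPKM (y axis, from 0) of the 5 carriers past the threshold in the 3 mutant (red circles) and 3 wild type (blue squares) libraries; black bars give the mean and SD (n = 3). In each panel all mutant points lie below all wild type points, each panel having its own axis, and the ratio of means is highest for slc25a48 (3.46) and slc25a32a (3.09).

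The pyrimidine nucleotide carriers, which serve mitochondrial DNA and RNA synthesis, did not pass. The gene slc25a33 had 59.0, 29.4 and 30.9 FPKM in mutant liver and 42.0, 23.0 and 10.1 in AB liver. The groups overlapped, since wild type replicate 1 lay above mutant replicates 2 and 3, and the log2 fold change of 0.78 had an SE of 0.48 (adjusted p = 0.332). Transcripts of slc25a36a stood at 12.0, 15.2 and 21.0 FPKM in mutant liver and 19.8, 18.5 and 27.1 in AB liver, overlapping through mutant replicate 3 (adjusted p = 0.263). Its paralogue slc25a36b had means of 6.72 and 6.83 FPKM (adjusted p = 0.951). Of the rest, slc25a51b, a carrier gene for NAD, was singled out after its values were seen. It had 5.38, 4.09 and 6.22 FPKM in mutant liver against 7.31, 8.27 and 8.72 in AB liver, without overlap (log2 fold change -0.56, SE 0.17, adjusted p = 0.0668), and it passed under median scaling and quantile normalization (lowest adjusted p = 0.0439, highest 0.188). The S-adenosylmethionine carrier gene slc25a26 had means of 7.39 and 9.12 FPKM and no overlap (adjusted p = 0.218), and the peroxisomal carrier gene slc25a17 overlapped at 2.36 and 2.98 (adjusted p = 0.447).

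Of the 4 carriers of iron and glutathione 3 were tested and none passed. The mitoferrin gene slc25a28, which brings iron into mitochondria of most cells, stood at 16.2, 15.8 and 15.7 FPKM in mutant liver and 15.5, 15.6 and 17.8 in AB liver. These values overlapped and differed little (log2 fold change -0.03, SE 0.13, adjusted p = 0.894). The erythroid mitoferrin gene slc25a37, the lowest of the group, had 8, 45 and 6 reads in mutant liver and 7, 7 and 28 in AB liver. Mutant replicate 2 and wild type replicate 3 were thus the high libraries, while the erythrocyte markers above were lower in mutant liver. The gene slc25a39, for glutathione import, was singled out after its values were seen. It had 5.93, 4.52 and 9.38 FPKM in mutant liver and 15.9, 14.2 and 10.3 in AB liver. The groups did not overlap, and the log2 fold change was -0.96 (SE 0.26, adjusted p = 0.0507). It passed in 6 of 14 alternatives, among which were leaving out mutant replicate 3 (0.0218) and wild type replicate 3 (0.0475), and the highest adjusted p was 0.15. Its close relative slc25a40 overlapped at means of 4.25 and 4.31 FPKM (adjusted p = 0.928).

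The remaining 6 genes are uncoupling-protein-like or have other or unassigned roles. The former, slc25a27 and slc25a14, had means of 1.37 and 1.48 FPKM in mutant liver and 2.29 and 1.501 in AB liver (adjusted p = 0.195 and 0.969). The gene slc25a46, whose product sits in the outer membrane and takes part in mitochondrial division and cristae shape, had 3.42 FPKM in both (adjusted p = 0.982). The orphan carrier gene slc25a43 had 1.34, 1.69 and 2.07 FPKM in mutant liver and 1.47, 5.36 and 4.20 in AB liver, with wild type replicate 1 among the mutant values (adjusted p = 0.213, and 0.0202 without that library). It lies 592 bases from slc25a5 on the same strand of chromosome 14.

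Below the filter, 14 members had a highest single-library value of 0.0265 to 1.48 FPKM, and none passed when all genes with a value were tested. The glutamate carrier gene slc25a18 had 106 mutant and 16 wild type reads, 6.54 times as many at matched depth (95% exact binomial interval 3.85 to 11.9), 53, 42 and 11 of the mutant reads lying in replicates 1, 2 and 3 (adjusted p = 0.183 with no filter). The ATP-Mg/phosphate carrier gene slc25a23b went the other way, with 1 mutant and 14 wild type reads (wild type over mutant 14.2, interval 2.16 to 599). These intervals cover counting error only and leave out the spread between libraries. The gene slc25a47a had 97 and 36 reads and slc25a24 119 and 60. These 4 genes were singled out after their reads were seen. Among the members below the filter, every mutant library lay above every wild type library for slc25a18, and below for slc25a23b and slc25a3a. These separations were narrow in reads. The nearest libraries had 11 mutant against 10 wild type reads for slc25a18, 1 against 2 for slc25a23b and 0 against 1 for slc25a3a. The share of such genes among all genes below the filter was not counted.

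Libraries of a genotype did not contribute equally. Among the 33 tested members the highest value lay in wild type replicate 3 for 16, in wild type replicate 1 for 8 and in wild type replicate 2 for 6, and in each mutant library for 1. The lowest value lay in mutant replicate 2 for 12, in mutant replicate 1 for 9 and in mutant replicate 3 for 3, and in wild type replicates 1, 2 and 3 for 6, 2 and 1. Relative to each gene's mean, the members' median log2 level was -0.14, -0.26 and -0.04 in mutant liver and 0.11, 0.01 and 0.26 in AB liver. The same median over all tested genes was -0.02, 0.02 and 0.06 in mutant liver and -0.03, -0.09 and 0.06 in AB liver. Carriers were thus lowest in mutant replicate 2 and highest in wild type replicate 3, and mutant replicate 3 was nearest to the wild type.

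**Figure D4:**
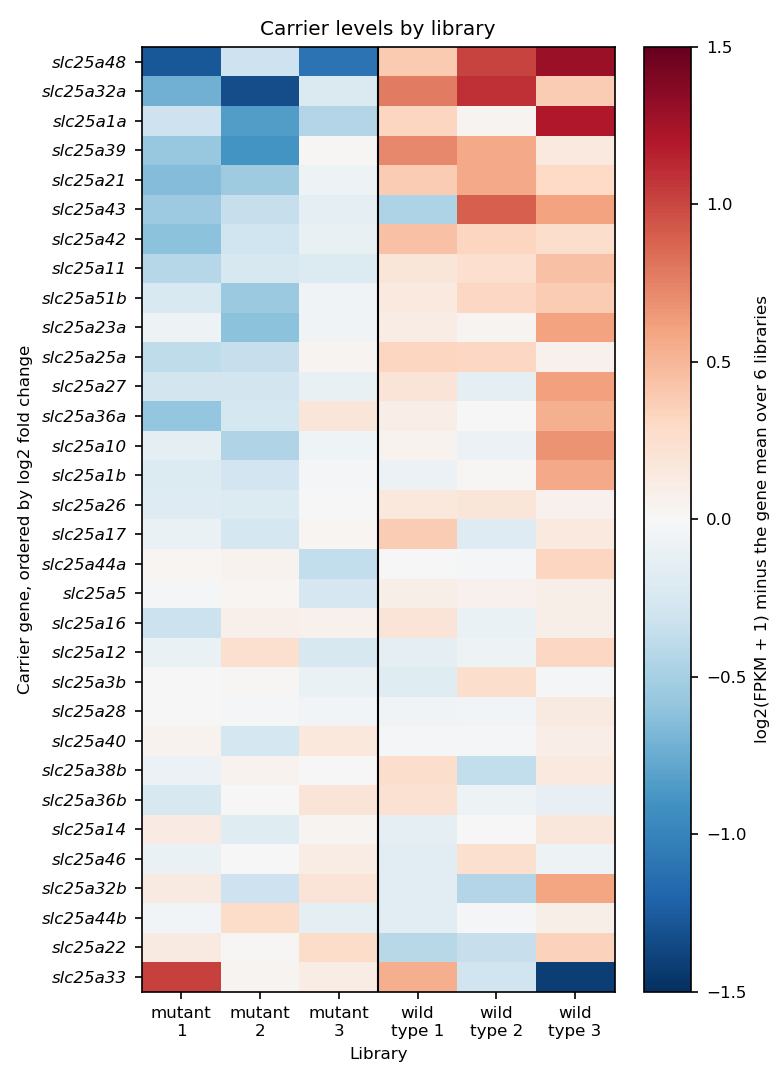
Level of 32 of the 33 tested carriers (rows, ordered by log2 fold change) in the 6 libraries (columns), as log2(FPKM + 1) minus the gene's mean over the libraries; blue is below and red above the mean, and the line parts the genotypes. The top rows are mostly blue in mutant liver and mostly red in AB liver, while slc25a33 in the bottom row is red in mutant replicate 1 and wild type replicate 1 and deep blue in wild type replicate 3.

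Some carriers are filed under other names. The table holds 16 further rows with the carrier domain, among them gene names in capitals, which the rule does not take, and the uncoupling proteins; this list was drawn up after the files were seen. Of 10 tested, 2 fell and 0 rose, beside 5.45% lower and 5.91% higher among all tested genes. Their median log2 fold change was -0.39. The uncoupling protein gene ucp1, known in mammals for heat production, was the second most abundant row with the domain, at 1563, 1431 and 1881 FPKM in mutant liver and 2278, 2830 and 2314 in AB liver. The groups did not overlap (log2 fold change -0.61, SE 0.15, adjusted p = 0.0401), and the call was lost in 7 of 14 alternatives (highest adjusted p 0.143), such as leaving out mutant replicate 1 or 2 (0.117 and 0.131) or wild type replicate 1, 2 or 3 (0.065, 0.12 and 0.0739). The row named SLC25A5, on chromosome 5, stood at 9.43, 9.68 and 7.04 FPKM against 19.4, 15.2 and 13.2, with no overlap (log2 fold change -0.80, SE 0.19, adjusted p = 0.0341). It kept its call without wild type replicate 3 (0.0362) and lost it without each of the other libraries (0.0681 to 0.0964). Reads of such related translocase genes may not be fully separable from those of slc25a5, whose level was far higher. Among those that did not pass, ucp2 was at a mean of 8.15 FPKM in mutant liver and 3.84 in AB liver (adjusted p = 0.112).

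Other genes of mitochondrial transport and content mostly did not pass, beside 5.45% lower and 5.91% higher among all tested genes. Of the enzymes served by the carriers 11 fell, in a list chosen with earlier results on these livers known. Of 26 general markers of mitochondrial content, such as citrate synthase and respiratory chain subunits, none passed in either direction (limma; at an unadjusted p under 0.05, 2 higher and 2 lower; 0 by voom), and their median log2 fold change was -0.05. Of 17 outer membrane channels and import receptors none passed (3 higher and 1 lower unadjusted; 0 by voom), with a median of -0.06. The TIM22 complex inserts carriers into the inner membrane, and the list with it also held TIM23 complex subunits. Of its 14 tested genes 1 fell, timm23a, the channel of the TIM23 complex for proteins with a presequence (log2 fold change -0.67, adjusted p = 0.0347), with a list median of 0.10. Its call was lost without any single library other than wild type replicate 1 (0.0641 to 0.116). Of 21 other inner membrane transport genes 1 fell and 0 rose. At an unadjusted p under 0.05 (limma) 3 were higher and 4 lower, and by voom 1 was higher and 1 lower. The fallen gene was mpc2, a subunit of the mitochondrial pyruvate carrier, which belongs to a separate family. It went from 340, 269 and 292 FPKM in AB liver to 140, 154 and 155 in mutant liver (log2 fold change -0.99, SE 0.14, adjusted p = 0.00724), and passed in all 14 alternatives.

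Of 39 tested partner enzymes, which make or use what the carriers move, 11 fell, 0 rose and 28 did not pass, with a median log2 fold change of -0.21, beside the background of 5.45% lower. The smallest p-values were those of alas2, the erythroid enzyme of haem synthesis and also one of the erythrocyte markers above, at 5.66 FPKM in mutant liver and 17.0 in AB liver (adjusted p = 0.00347), of the gluconeogenic gene pck1 (8.37 and 76.1; 0.00503), of the glutamine synthetase gene glula (7.14 and 63.0; 0.00519), and of the pantothenate kinase gene pank1a, first enzyme of coenzyme A synthesis (4.79 and 12.0; 0.0158). The call of pank1a was lost without mutant replicate 2 (0.0521). Genes of this list were chosen with earlier results on these livers known, and pck1, glula and alas2 were among those results.

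**Figure D5:**
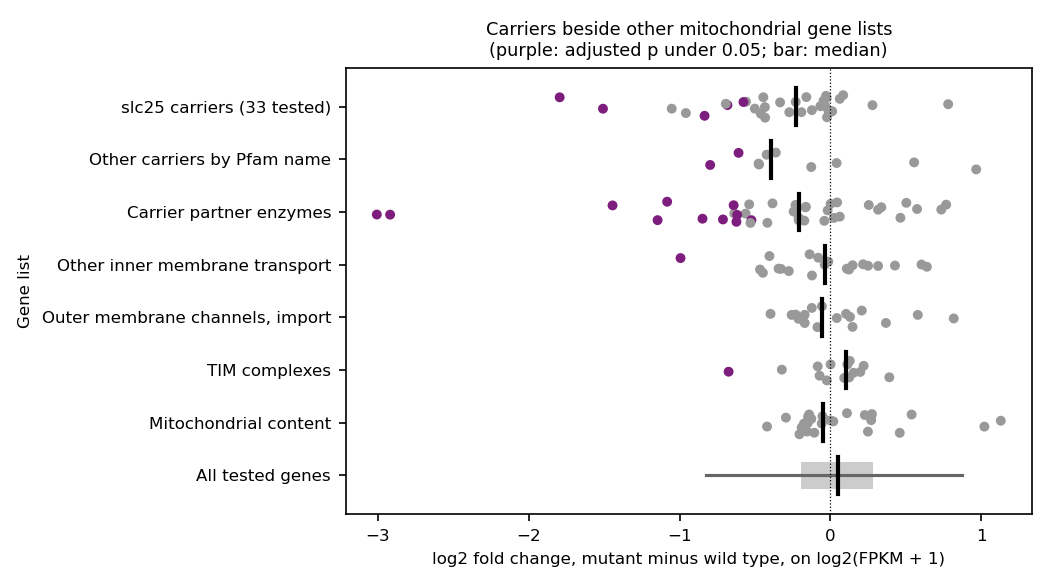
Log2 fold change (x axis) of each tested gene in the carrier family and in 6 other lists (y axis), and the spread of all tested genes; purple points passed an adjusted p of 0.05, black bars are medians, and for all genes the grey box spans the 25th to 75th and the line the 5th to 95th percentile. The medians of the carriers (-0.23) and of their partner enzymes (-0.21) lie left of those of mitochondrial content (-0.05) and of all genes (0.05). Farthest left lies the median of the other carriers by Pfam name (-0.39, 10 tested), a list drawn up after the files were seen. The partner enzymes were chosen with earlier results on these livers known, among them those of pck1, glula and alas2.

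Members lay on 21 chromosomes, and the 5 that fell lay on 5 different ones (coordinates as in the deposited table; GRCz11 is the build in the submitters' processing notes). On chromosome 20, which holds capn3b, lay 4 members, slc25a24, slc25a27, slc25a29 and slc25a47a, at 8.65 to 27.7 Mb from it, and none of them passed. The neighbours slc25a29 and slc25a47a, 3869 bases apart and on opposite strands, have a counterpart on chromosome 17, where the rows SLC25A29 and SLC25A47 lie 10145 bases apart, also on opposite strands. The chromosome 20 copies were hardly read, while SLC25A29 had means of 35.2 FPKM in mutant liver and 47.3 in AB liver. The spans of 9 members overlap another gene, none of the fallen ones among them. For slc25a27 (ephx1, mean 66.0 FPKM), slc25a40 (cldn12, 7.15), slc25a23b and slc25a18 (cecr2, 0.462) the overlapping gene had the higher level, and since no use of strand in the counting is stated, their reads may be shared.

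The deposited lists of splicing, start and end events were read for the carriers. All 47 members had at least 1 listed event, since a gene with a single start and end is listed too. More than 1 start was listed for 21 members and more than 1 end for 16, some differing by a few bases only. Listed starts and ends of a gene did not always match in FPKM. For slc25a32a the only listed start had 0.747 in mutant replicate 2 and 0 in the other libraries, while its end had 4.38 to 29.7. For slc25a42 the start had 0 in mutant replicate 2 and wild type replicate 3, while its end had 13.3 and 20.2 there. The reason was not tested. An exon or intron event was listed for 9 members, 15 events in all. Of these events 6 showed both forms in at least 1 library (each at over 1% of the event's FPKM). For slc25a39 a cassette exon of chromosome 3 (29754920 to 29754970) was included in 58.8%, 79.0% and 81.3% of the event's FPKM in mutant liver and in 83.4%, 86.0% and 77.4% in AB liver. Mutant replicate 1 stood apart and the other libraries overlapped. For slc25a48, whose gene is read on the minus strand, an upstream transcript end (25296670 to 25296918) took 62.9 of 125.6 FPKM in mutant replicate 3 and 85.9 of 295.1 in wild type replicate 1, and 0 in the other 4 libraries, so it did not follow genotype. Events were described and not tested, and the FPKM of the event lists are on their own scale.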

How the data were processed

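Per the labels' protocols, TRIzol and a Direct-zol kit gave the RNA of dissected livers, sequenced with standard Illumina libraries. The authors deposited FPKM values for 23354 genes and, for each library, event lists with isoform FPKM; GRCz11 (build) and DESeq2 (tool) are named, per the submitters' processing notes. For aligner, counter and annotation release: not given in the sources used here. FPKM are not counts, so log2(FPKM + 1) was tested with limma 3.58.1 (R 4.3.3), with genotype as the only term, an intensity trend, two-sided p-values, and Benjamini-Hochberg adjustment over the 11164 genes reaching 1 FPKM in 3 or more libraries. On this scale changes of low genes are understated. Reads were recovered as whole multiples (tolerance 1e-04 reads) for 99.97% of genes, and serve for depth, floors of 3 reads, 95% intervals and voom. Fit and recovery were tested on simulated data. Full values were given for members past the threshold, the 10 most abundant members and paralogues of fallen members; of each list, all genes past the threshold up to 6, otherwise the 4 of smallest p. Members and lists were chosen with earlier results of these data known. The alternatives were pseudocount, scaling, filter, robust moderation, replicate block, voom and each library left out. Python 3.11.15, pandas 2.3.3, scipy 1.17.1 and matplotlib 3.10.9 were used. No sequence was printed. The values of 1 tested member are not reported here, though it enters all counts and medians.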

Additional observations from a re-analysis of the deposited data

How the results depend on the processing

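All 5 fallen carriers kept their direction in every alternative that tested them, slc25a21 being untested at the 5 FPKM filter. Of the 33 members 11, none of them past the threshold, changed sign in at least 1 alternative. The count of fallen carriers was 5 at a pseudocount of 0.1 and at a filter of 5 FPKM, 6 with robust moderation and with voom, 7 with quantile normalization, 8 with median scaling, 1 with no filter, and 0 to 5 with 1 library left out (0 without wild type replicate 2, where 414 genes were called in all). These counts did not always hold the same carriers. Of the 5 fallen in the main fit, 4 were still called under the 5 FPKM filter, and slc25a39 was called there too. Omitting mutant replicate 3 kept 4 of the 5, omitting wild type replicate 3 kept 3, and omitting wild type replicate 1 kept 1. List genes here are those of partner enzymes, other inner membrane transport, outer membrane channels and import, TIM complexes and mitochondrial content. They also include a list of other carriers, 3 of them tested in the main fit, but not the full set of rows with the carrier domain. In the main fit 14 of 120 tested list genes were called. With no filter, 592 of 23354 genes and 7 list genes were called. With 1 library left out, 414 to 1134 genes and 4 to 13 list genes were called, against 1268 and 14 with all. With the replicate block 2 carriers (slc25a48 and slc25a1a), 8 list genes and 950 genes were called. Over all tested genes the replicate numbers gave no sign of pairing the libraries. Deviations of same-numbered libraries correlated at -0.0448, -0.00964 and -0.0833, and those of unlike number at -0.0606 to 0.103. A pairing that touches only some genes was not tested. The cause of these changes was not tested, except that more genes enter the adjustment with no filter and fewer libraries enter with 1 left out. Depth limits what can be said of the 14 members below the filter, 3 of which (slc25a4, slc25a6 and slc25a24l) had 8 reads or fewer in total.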
